A study of Mus musculus with 6 samples.

Results

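The genes described here are Runx1, Runx2 and Runx3, the mouse Runt-related transcription factors, and Cbfb, which encodes the partner subunit they share. They were picked by symbol from the 55401 gene identifiers of an RNA-seq count table, 4 genes in all, after the values of Runx1 in this same comparison had drawn attention. Every library came from the tibialis anterior (TA) muscle of C57BL/6 mice of the genotype HSA-MCM-Bmal1-/-, whose TA was injected with an adeno-associated virus (AAV) carrying either GFP (AAV-GFP, n = 3) or Rbm20 (AAV-RBM20, n = 3). Mice were 12 to 16 weeks old and male, received 2 mg tamoxifen per day for 5 days to delete Bmal1, a core gene of the circadian clock, were injected with AAV 4 weeks later, and muscles were collected 4 weeks after the injection. The Cre is driven by the human skeletal actin promoter and so acts in skeletal muscle fibres. Both groups carry the Bmal1 deletion, no muscle with intact Bmal1 was compared here, and RBM20, a splicing regulator of titin, was expressed as an HA-tagged cDNA from the CMV promoter. More vector was given for RBM20 than for GFP, and the effects of dose and transgene cannot be told apart.

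RUNX proteins bind DNA through the Runt domain, and CBFB, which does not itself bind DNA, raises their affinity for their sites and protects them from degradation. RUNX1 is a master regulator of blood cell formation, RUNX2 of bone formation, and RUNX3 acts in T and natural killer (NK) cells and in sensory neurons. In skeletal muscle, Runx1 is scarce in innervated fibres and is known to be induced by denervation and injury, where it limits fibre wasting and acts in myoblasts.

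Each Runx gene is transcribed from a distal and a proximal promoter, and the counts, summed per gene, do not separate their products. In the RefSeq promoter windows (GRCm38.p6, from 250 bases before to 50 after a start), the distal windows of Runx1, Runx2 and Runx3 each held a pair of RUNX core motifs 8 bases apart. The motif searched was TGTGGT on both strands, which reads ACCACA on the opposite strand. The stretches of 30 bases around these pairs are shown because the 3 genes share them, each 5′ to 3′ on its gene's own strand with the motifs in capitals.

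Runx1, chr16:92826026-92826055, minus strand: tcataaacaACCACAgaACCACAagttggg

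Runx2, chr17:44814584-44814613, minus strand: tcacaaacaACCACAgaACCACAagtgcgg

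Runx3, chr4:135120502-135120531, plus strand: ggtccctcaACCACAgaACCACAaggccag

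The stretches lie at bases 20 to 49 from the start in Runx1, 15 to 44 in Runx2 and -143 to -114 in Runx3. Runx1 and Runx2 were identical at 27 of the 30 bases, Runx2 and Runx3 at 21, and Runx1 and Runx3 at 19. All 3 genes shared an unbroken run of 18 bases, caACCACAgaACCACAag, which was present in 4 of 32851 promoter windows. The fourth was that of Gm16225, which overlaps the Runx3 window on the opposite strand. At least 1 RUNX core was present in 16.8% of all windows and a pair at most 15 bases apart in 0.219%. The proximal windows of Runx1 and Runx3 and the window of Cbfb held none of these letters, and no proximal window of Runx2 was used. The distal Runx1 window also held the only CACGTG E-box among the 4 genes, the sequence that BMAL1 and CLOCK bind, a motif found in 7.15% of all windows. It is shown because Bmal1 is deleted in every animal, with the E-box in capitals, at bases -83 to -54 from the start.

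Runx1 E-box, chr16:92826128-92826157, minus strand: catcacttaagtCACGTGattggcaagagc

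A match of letters is a description of these windows and says nothing about whether a factor was bound in these muscles.

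Library totals ranged from 41400132 to 54226618 counts. The AAV transgene was visible in its own gene, as Rbm20 stood at 170, 165 and 164 CPM (counts scaled to a common library size) in AAV-GFP replicates 1, 2 and 3 and at 499, 545 and 406 CPM in AAV-RBM20. The libraries numbered 3 stood apart in both groups, with 4.48% and 9.05% of counts from Ttn against 16.9% to 17.8% in the other 4, and 12.5% and 11.4% from mitochondrial genes against 6.41% to 7.66%. Each count below is the sum over a whole muscle, in which a change in the number of cells of a type and a change in RNA per cell cannot be told apart.

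The members were first ordered by their level per length. The genes were not chosen by comparing their levels with each other, but the levels include the Runx1 values that had drawn attention. The order was taken from these same libraries, so the neighbour pairs tested below were set by the data. Cbfb was by far the most abundant, at 21.8 ± 4.94 FPKM (CPM per kilobase of merged exons, SD, n = 6). Runx1 followed at 0.784 ± 0.355 FPKM, Runx2 at 0.255 ± 0.0657 FPKM and Runx3 at 0.0935 ± 0.0987 FPKM. The order was the same in 6 of 6 libraries. On the log2 FPKM scale, with 0.01 added, Cbfb exceeded Runx1 by 4.89 (SD 0.94), Runx1 exceeded Runx2 by 1.49 (SD 0.45) and Runx2 exceeded Runx3 by 1.69 (SD 0.76). Each of these 3 neighbour differences gave p = 0.0312 in a two-sided exact sign-flip permutation test over the 6 libraries, with an adjusted p of 0.0312 over the 3 pairs, the smallest value that 6 libraries allow. This treats the 6 libraries as independent. With the mean of the pair of libraries sharing a number as the unit, all 3 numbers again had the same order, but the exact permutation p could not go below 0.25 and was 0.25 for each pair. Counting each gene by its longest transcript instead of its merged exons, which span 12025 bases in Runx1 but 3480 in Cbfb, moved the first difference to 4.13 and the second to 2.08.

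Runx1 (ENSMUSG00000022952, chromosome 16, 92601466 to 92826149, minus strand, 9 merged exons, 7 annotated transcripts) was counted 194, 251 and 313 times in AAV-GFP replicates 1, 2 and 3, and 755, 500 and 658 times in AAV-RBM20. Scaled to library size, this was 4.77, 6.01 and 5.95 CPM in AAV-GFP against 13.8, 12.4 and 13.5 CPM in AAV-RBM20. The lowest AAV-RBM20 library was above 2 times the highest AAV-GFP library, and the groups did not overlap, as in 7.71% of all genes tested in this direction. The group means were 5.58 ± 0.698 and 13.3 ± 0.739 CPM (SD, n = 3 each), a ratio of 2.38, and the spread within each group was small beside the distance between them. The log2 fold change was 1.25 ± 0.15 (SE). These are the values for which Runx1 was chosen, so no test is attached to them.

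Between libraries sharing a replicate number, Runx1 differed by 1.54, 1.05 and 1.19 on the log2 CPM scale. It was one of 25 genes (0.145% of those tested) whose adjusted p was below 0.05 when the replicate number was added to the edgeR model as a block, and this is what had drawn attention to it. Without the block no gene passed (0 of 17222, 0%, smallest adjusted p = 0.121, edgeR quasi-likelihood test), 1360 genes (7.90%) had an unadjusted p below 0.05, and DESeq2 called 72 of 19916 (0.362%). That smallest value was reached by Rbm20, the gene on the vector, at a log2 fold change of 1.54 ± 0.15. With the block its adjusted p in edgeR was 0.0107. A gene that did not pass without the block is therefore not read as unchanged. With both libraries numbered 3 left out, edgeR called 690 of 17250 (4.00%).

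Runx2 (ENSMUSG00000039153, chromosome 17, 44495987 to 44814797, minus strand, 11 merged exons, 13 transcripts) was counted 64, 86 and 102 times after AAV-GFP, and 141, 85 and 157 times after AAV-RBM20. This corresponded to 1.57, 2.06 and 1.94 CPM and to 2.58, 2.11 and 3.23 CPM. The groups did not overlap, but only by a narrow margin, since AAV-RBM20 replicate 2 lay at 2.11 CPM with an exact 95% Poisson interval of 1.69 to 2.61 CPM and AAV-GFP replicate 2 at 2.06 CPM with an interval of 1.65 to 2.54 CPM. These intervals cover counting error only. The means were 1.86 ± 0.253 and 2.64 ± 0.561 CPM (SD, n = 3 each), a ratio of 1.42, and the log2 fold change was 0.51 ± 0.25 (SE). Without AAV-RBM20 replicate 3, which held the highest value, it was 0.35 ± 0.26.

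Runx3 (ENSMUSG00000070691, chromosome 4, 135120652 to 135177990, plus strand, 9 merged exons, 6 transcripts) was close to the limit of detection in 5 of the 6 libraries. Its counts were 5, 11 and 19 with AAV-GFP, and 15, 13 and 71 with AAV-RBM20. In CPM these were 0.123, 0.264 and 0.361 against 0.275, 0.323 and 1.46, so the groups overlapped and 1 library, AAV-RBM20 replicate 3, was set apart from the rest. The interval of that library, 1.14 to 1.84 CPM, did not meet that of any other, the nearest reaching 0.564 CPM. The log2 fold change of 1.44 ± 0.74 (SE) rested on this library and was 0.25 ± 0.57 without it. With both libraries numbered 3 left out it was 0.62 ± 0.61.

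Cbfb (ENSMUSG00000031885, chromosome 8, 105170674 to 105217989, plus strand, 7 merged exons, 7 transcripts) went the other way. Its counts were 3280, 3117 and 5681 with AAV-GFP, and 3361, 2698 and 3097 with AAV-RBM20, or 80.7, 74.7 and 108 CPM against 61.6, 67.1 and 63.8 CPM. Every AAV-RBM20 library was below every AAV-GFP library, as in 9.04% of all genes tested, and the AAV-GFP libraries were spread more widely. The means were 87.8 ± 17.7 and 64.2 ± 2.78 CPM (SD, n = 3 each), a ratio of 0.731, with a log2 fold change of -0.45 ± 0.16 (SE). AAV-GFP replicate 3 held the highest value, and without it the log2 fold change was -0.28 ± 0.10.

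Separation of the group ranges was common in these libraries, with AAV-RBM20 higher in 1328 of the 17222 genes tested, as for Runx1 and Runx2, and lower in 1557, as for Cbfb. It was counted in the same comparison that chose the genes, so nothing is read from it about them.

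**Figure D1:**
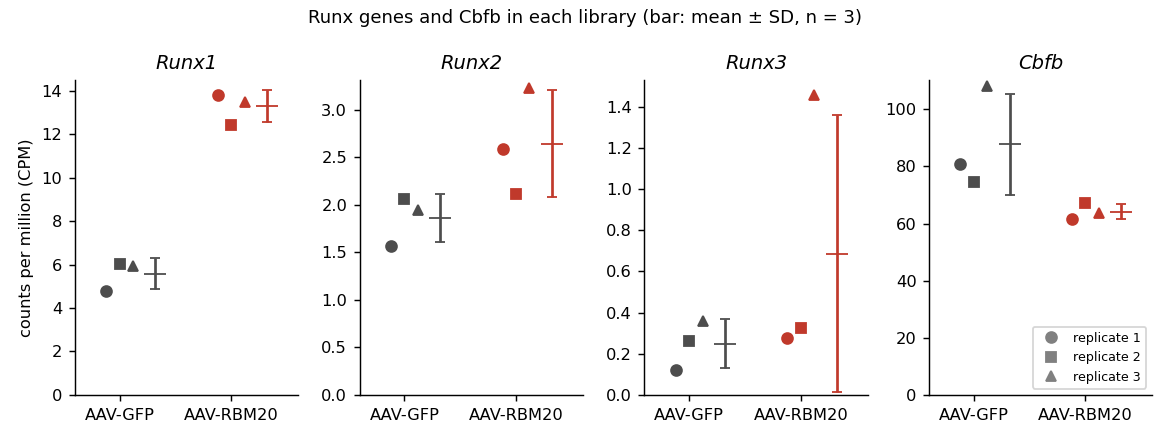
CPM of each gene (vertical axis, linear, from 0, its own scale per panel) in the 3 AAV-GFP libraries (grey) and the 3 AAV-RBM20 libraries (red), with the replicate number given by the symbol and the mean ± SD beside them. Runx1 lies at 4.77 to 6.01 CPM in AAV-GFP and 12.4 to 13.8 CPM in AAV-RBM20, Runx2 is separated only narrowly, Runx3 is set by AAV-RBM20 replicate 3 at 1.46 CPM, and Cbfb is lower in AAV-RBM20.

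With Runx transcripts higher and Cbfb lower, the balance between the DNA-binding subunits and their partner differed between the groups. The 3 Runx genes summed to 0.6, 0.786 and 0.786 FPKM in AAV-GFP, and to 1.5, 1.34 and 1.78 FPKM in AAV-RBM20. Cbfb stood at 38.7, 27.3 and 39.5 times this sum in AAV-GFP and at 11.8, 14.4 and 10.3 times in AAV-RBM20, so it remained in excess in every library but the groups did not overlap. The mean ratio was 35.2 ± 6.82 against 12.2 ± 2.07 (SD, n = 3 each). Runx1 contributed 66.2%, 63.6% and 62.9% of the Runx sum after AAV-GFP, against 76.8%, 77.3% and 63.1% after AAV-RBM20, the last being the library with high Runx3. Runx2 contributed 29.1% ± 1.04 in AAV-GFP and 19.3% ± 1.31 in AAV-RBM20 (SD, n = 3 each). The size of these ratios and shares depends on the length used, here merged exons, 12025 bases in Runx1 and 3480 in Cbfb. The longest transcripts span 5861 and 2891 bases, and the ratios were not recomputed with them. These ratios combine the values that chose the genes and carry no test. They compare transcripts, and no protein was measured for these genes here.

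**Figure D2:**
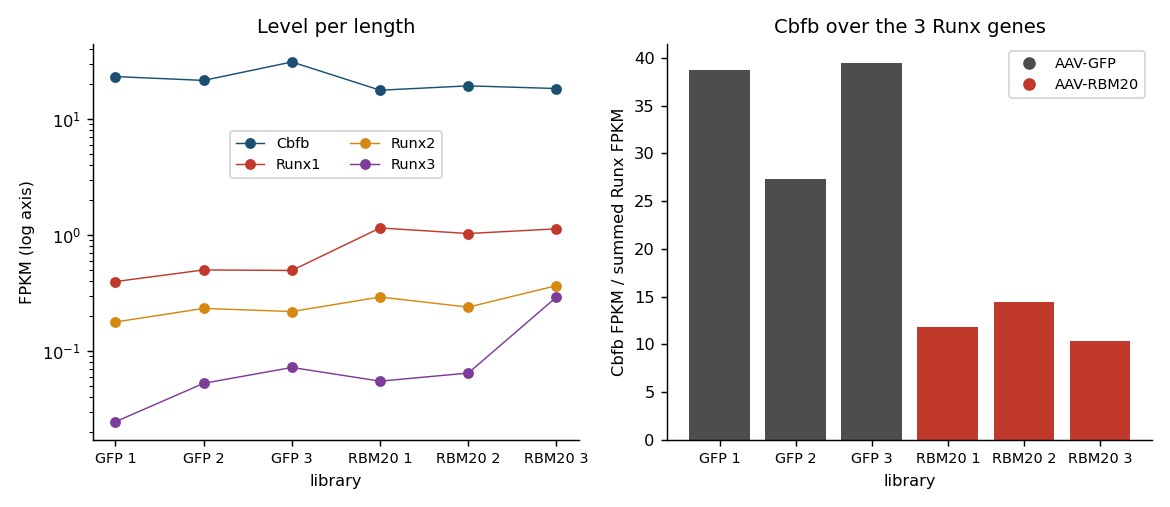
Left, FPKM of Cbfb, Runx1, Runx2 and Runx3 in each of the 6 libraries on a log axis, with lines joining the libraries only to guide the eye. Right, Cbfb FPKM divided by the summed FPKM of the 3 Runx genes on a linear axis from 0, between 27.3 and 39.5 in AAV-GFP (grey) and between 10.3 and 14.4 in AAV-RBM20 (red).

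The sizes of these differences were recomputed under 13 other settings of normalisation, filter, test and library choice. Runx1 ranged from 1.15 to 1.30 on the log2 scale, Runx2 from 0.35 to 0.64 and Cbfb from -0.56 to -0.26, all on the same side of 0 as first computed. Runx3 ranged from 0.25 to 1.83 and was removed altogether by a filter of at least 1 CPM in 3 libraries, which left 12 settings for it.

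**Figure D3:**
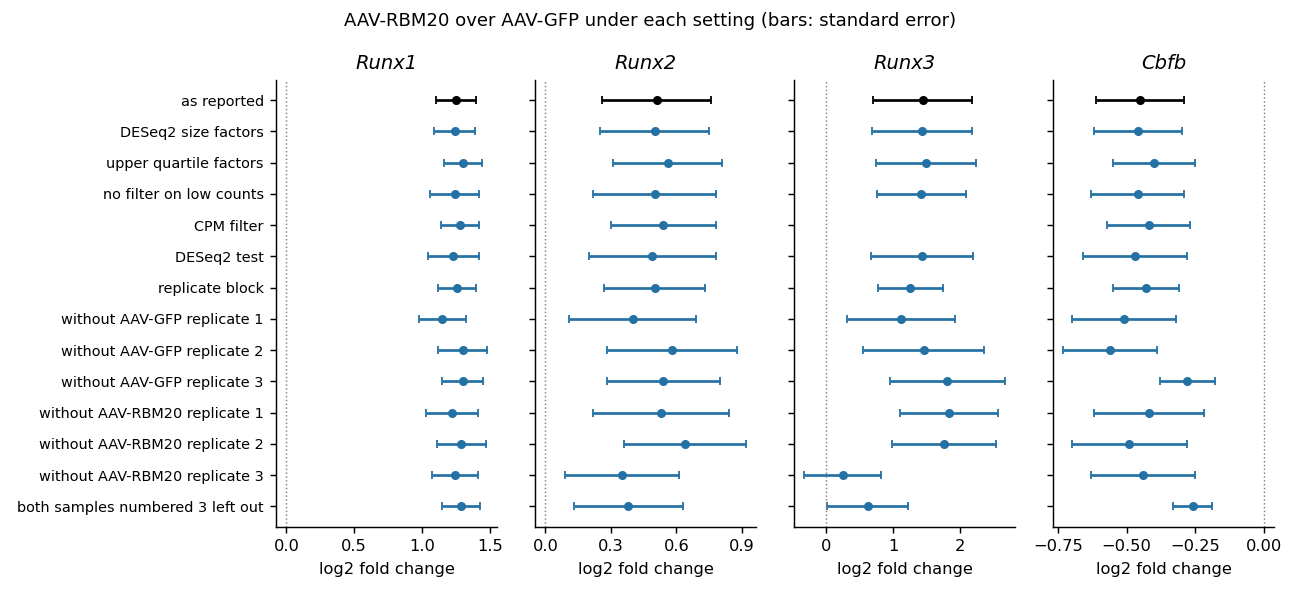
Log2 fold change of AAV-RBM20 over AAV-GFP (horizontal axis, its own scale per panel) with its standard error for each gene under each setting, the value as reported in black and 13 alternatives in blue (12 for Runx3). Runx1 stays between 1.15 and 1.30, while Runx3 drops to 0.25 without AAV-RBM20 replicate 3.

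Transcripts that overlap the Runx genes added few reads. Gm26626, antisense to Runx1, shared 106 exon bases with it and had 1 count over all 6 libraries. Runx2os1, antisense to Runx2, shared 519 exon bases (5.87% of the merged exons of Runx2) and was counted 3, 0 and 9 times with AAV-GFP, and 16, 9 and 22 times with AAV-RBM20. It was thus higher in the AAV-RBM20 libraries on average, like Runx2 itself, although AAV-GFP replicate 3 and AAV-RBM20 replicate 2 were level at 9. Supt3, which runs through the Runx2 locus on the opposite strand, shared no exon base with it. The library kit keeps strand, but whether the counting used it is not given in the sources used here, so reads from Runx2 and Runx2os1 in the shared bases cannot be told apart.

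The genes whose pattern was most like that of a member were found by Pearson correlation of log2 CPM over the 6 libraries, among 13243 tested genes averaging 0 or more in log2 CPM. For Runx1 these were Dclre1c (r = 0.9955), which encodes the DNA repair nuclease Artemis, Lrig3 (0.9819), the small RNA gene Gm22442 (0.9814), Gas2l1 (0.9799) and Tmem229b (0.9746). Dclre1c had 3.89, 4.24 and 4.31 CPM with AAV-GFP, and 5.90, 5.95 and 5.89 CPM in AAV-RBM20. The genes most like Cbfb were Bex1, Ube2n, Riok3, Arpc3 and Lrrc59, all with r of at least 0.9971. Those most like Runx2 were Slc25a45, Ccdc88b, Pla2g4a, Itgb3, which encodes the platelet and osteoclast integrin beta-3 subunit, and Ubash3b. Those most like Runx3 were Ints8 (r = 0.9969), Plcg2, a phospholipase of B and myeloid cells (0.9962), the interferon-induced Ifit2 (0.9921), Zfp329 (0.989) and Tmem106a (0.9889). All of these were highest in AAV-RBM20 replicate 3, with Ints8 at 22.7 CPM, Plcg2 at 4.26 CPM and Ifit2 at 7.27 CPM there. When the group means were first removed, the genes most like Runx1 were Fen1 (r = 0.9986), Ccnd1, which encodes cyclin D1 (0.9876), Zdhhc6, Nit1 and Emc9. The high r values are the best among all genes compared over 6 libraries that share a group difference and the 2 libraries numbered 3, and are given only as a description.

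Among the members, Runx1 and Runx2 correlated at r = 0.84 over the 6 libraries and at 0.74 as deviations from the group means, and Runx2 and Runx3 at 0.87 and 0.84. Runx1 and Cbfb correlated at -0.76, but at 0.16 as deviations. Among the AAV-RBM20 libraries the order of Cbfb was the reverse of that of Runx1, whereas AAV-GFP replicate 3 held the most Cbfb together with Runx1 close to the highest of its group.

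Genes that work with, control or respond to RUNX proteins were then taken from 7 lists, which together held 105 genes, 82 of them tested. None passed an adjusted p of 0.05 in the edgeR test without a block, 18 (22% of the 82, against 7.90% of all genes tested) had an unadjusted p below 0.05, 11 of them higher and 7 lower in AAV-RBM20 (4.08% and 3.82% of all genes), and DESeq2 called 2. The lists were assembled with results of these data known. Over all genes tested, the log2 fold change had a median of 0.009.

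Corepressors that RUNX proteins recruit, 17 of 17 tested, had a median of 0.00 for the log2 fold change, with 7 above 0. The group ranges of 2 were higher in AAV-RBM20 without overlap and those of 4 were lower, against 7.71% and 9.04% of all genes tested. Runx1t1, the ETO corepressor known as the fusion partner of RUNX1 in leukaemia, had 3.20, 2.66 and 3.34 CPM with AAV-GFP, and 4.11, 3.96 and 4.82 CPM in AAV-RBM20 (log2 fold change 0.48 ± 0.19). The Groucho-family corepressor Tle3 had 12.7, 14.0 and 10.7 CPM against 16.3, 15.8 and 18.6 CPM (0.44 ± 0.15). Hdac3, a histone deacetylase, was at 51.7, 48.7 and 50 CPM with AAV-GFP, and 41.2, 41.1 and 34.5 CPM in AAV-RBM20 (-0.36 ± 0.12), and the short Groucho-family member Aes at -0.32 ± 0.15. With both libraries numbered 3 left out, Tle3 stood at 0.27 and Aes at -0.17. None of these 4 passed the edgeR test, with adjusted p values of 0.618 for Runx1t1, Tle3 and Hdac3 and 0.641 for Aes.

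Coactivators, 10 of 10 tested, had a median of -0.02, 4 were above 0 and none was separated between the groups. The kinase Hipk2 stood at -0.25 ± 0.18 and the arginine methyltransferase Prmt1, which modifies RUNX1, at -0.29 ± 0.15. Without AAV-GFP replicate 3 they were at -0.40 and -0.13, and without AAV-RBM20 replicate 3 or AAV-GFP replicate 1 Hipk2 was at -0.14. Genes for the turnover of RUNX proteins, 7 of 7 tested, had a median of -0.11, with 2 above 0. The ubiquitin ligases Smurf2 and Wwp1 stood at -0.26 ± 0.15 and -0.27 ± 0.21, and at -0.13 and -0.03 without AAV-GFP replicate 3. Leaving out each library in turn, the list's median lay between -0.22 and -0.01. Partner transcription factors, 14 of 17 tested, had a median of 0.06, with 9 above 0. Of these, 2 were lower in AAV-RBM20 without overlap, against 9.04% of all genes tested. Smad3, which transmits TGF-beta signals, stood at -0.33 ± 0.13. The myogenic factor Myod1 was at 39.4, 39.1 and 40.5 CPM against 31.3, 32.9 and 31 CPM (-0.32 ± 0.11). With both libraries numbered 3 left out, Smad3 stood at -0.18. Fos, a subunit of AP-1, was at 5.07, 5.99 and 3.06 CPM with AAV-GFP, and 4.14, 14.7 and 8.81 CPM in AAV-RBM20, which overlapped, and its log2 fold change of 0.97 ± 0.44 was 0.46 without AAV-RBM20 replicate 2.

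Known RUNX targets of blood cells, 9 of 18 tested, had a median of 0.96, and 8 were above 0. Without AAV-RBM20 replicate 3 the median was 0.52, and with the filter of 1 CPM in 3 libraries 0.59. Only those expressed enough to pass the filter are counted here. A scarce gene can pass it through the group in which it is high, which favours values above 0. Foxp3, at the list's highest value of 1.97, had counts of 3, 1 and 6 with AAV-GFP and 18, 12 and 12 with AAV-RBM20. No direction is therefore read from the median or from the 8. Itgax, the CD11c integrin of dendritic cells and macrophages, was at 0.566, 0.503 and 1.35 CPM with AAV-GFP, and 1.37, 1.07 and 3.89 CPM in AAV-RBM20, highest in AAV-RBM20 replicate 3 and level at 1.35 and 1.37 CPM in AAV-GFP replicate 3 and AAV-RBM20 replicate 1. Its log2 fold change of 1.37 ± 0.59 was 0.60 without AAV-RBM20 replicate 3. Zbtb7b, which directs T cells to the CD4 lineage and is not specific to them, was lower in AAV-RBM20, at 31, 31.6 and 47.4 CPM against 26.3, 27.4 and 26.6 CPM (-0.46 ± 0.18, and -0.23 without AAV-GFP replicate 3). Skeletal targets of RUNX2, 8 of 16 tested, had a median of 0.36 with 7 above 0, and none was separated between the groups. The median changed sign, to -0.20 without AAV-RBM20 replicate 3 and to -0.08 with both libraries numbered 3 left out. Col1a1, the main collagen of bone and of connective tissue, was at 167, 159 and 255 CPM with AAV-GFP, and 356, 203 and 412 CPM in AAV-RBM20. It is also a marker of fibro-adipogenic cells, the connective tissue cells of muscle, whose 12 markers, 10 of them above 0 with a median of 0.23, summed to 965, 865 and 1870 CPM with AAV-GFP against 1540, 1430 and 1660 CPM with AAV-RBM20. That sum overlapped between the groups and was highest in AAV-GFP replicate 3, and its part in the skeletal targets was not tested. The collagenase Mmp13 had 16.4 CPM in AAV-RBM20 replicate 3 and at most 2.24 CPM in any other library. Its log2 fold change of 1.93 ± 1.51 became -2.75 without that library.

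Genes known to respond to denervation, the setting in which Runx1 is best known in muscle, lay on both sides of 0. Of 24, 21 were tested, the median log2 fold change was -0.05, and 9 were above 0. The list was not split by the direction in which denervation moves each gene. The median and the 9 therefore do not say whether it moved with denervation. Leaving out each library in turn, the median lay between -0.12 and 0.17, on either side of 0. The ranges of 5 were higher in AAV-RBM20 without overlap and those of 4 were lower, against 7.71% and 9.04% of all genes tested. In the edgeR test without a block 10 of the 21 had an unadjusted p below 0.05, 6 higher and 4 lower. Of all genes tested 4.08% were higher and 3.82% lower at that level. The embryonic myosin Myh3 had 1.13, 1.44 and 0.646 CPM with AAV-GFP, and 8.38, 2.54 and 1.87 CPM in AAV-RBM20, and the perinatal myosin Myh8 had 1.87, 1.82 and 0.874 CPM against 10.4, 3.98 and 3.81 CPM. Both had a log2 fold change of 2.00, with SE 0.59 and 0.47, and both were the only listed genes called by DESeq2 (adjusted p = 0.0485 and 0.00376) but not by edgeR (adjusted p = 0.618 and 0.617). For both, AAV-RBM20 replicate 1 was the highest library, a replicate in which Runx1 was also at its highest, and without it Myh3 stood at 1.05.

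Ncam1, which spreads over the membrane of denervated fibres, was at 5.17, 6.28 and 6.61 CPM with AAV-GFP, and 10.4, 11.1 and 7.95 CPM in AAV-RBM20 (0.70 ± 0.18). Myog, the myogenic factor that drives the denervation programme, was at 1.80, 2.04 and 2.11 CPM against 2.88, 3.18 and 2.57 CPM (0.54 ± 0.21). The acetylcholine receptor subunits, which denervation brings up along the whole fibre, overlapped between the groups. Chrna1 stood at 0.42 ± 0.39, Chrnd at 0.43 ± 0.45 and Chrnb1 at -0.05 ± 0.36. Leaving out each library in turn, Chrna1 ranged from 0.06 (without AAV-RBM20 replicate 2) to 0.75 (without AAV-RBM20 replicate 3) and Chrnd from 0.20 (without AAV-GFP replicate 1) to 1.03 (without AAV-GFP replicate 2). The fetal subunit Chrng was not tested, with 0.312 CPM as its highest value. The ubiquitin ligases of muscle wasting were lower without overlap. Trim63 was at 203, 211 and 284 CPM with AAV-GFP, and 150, 180 and 164 CPM in AAV-RBM20 (-0.50 ± 0.17, and -0.33 without AAV-GFP replicate 3). Fbxo32 was at 542, 483 and 595 CPM against 405, 405 and 403 CPM (-0.42 ± 0.13). Musk, the receptor kinase of the synapse, stood at -0.39 ± 0.17, and at -0.23 without AAV-GFP replicate 2. None of these passed the edgeR test, the adjusted p values being 0.618 for Ncam1, Myog, Trim63 and Fbxo32 and 0.641 for Musk. Runx1 therefore differed beside some genes of this list in the same direction and others in the opposite one.

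**Figure D4:**
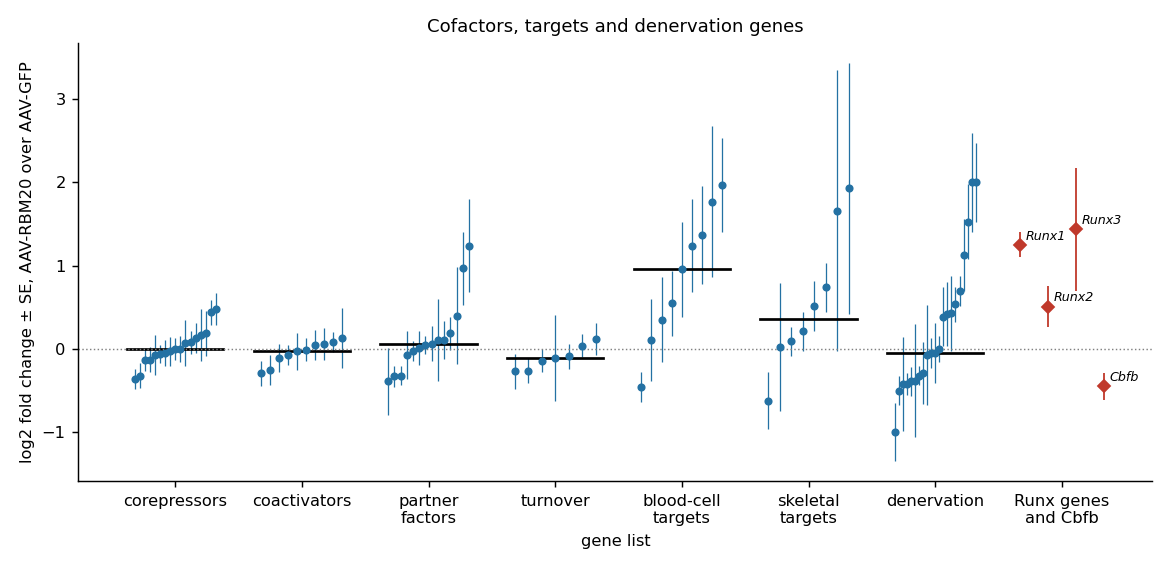
Log2 fold change of AAV-RBM20 over AAV-GFP with its standard error (vertical axis) for each tested gene of 7 lists (blue, sorted within a list, the black bar being the list's median) and for Runx1, Runx2, Runx3 and Cbfb (red). The medians of the cofactor, turnover and denervation lists lie between -0.11 and 0.06, and those of the blood-cell and skeletal targets at 0.96 and 0.36, which were 0.52 and -0.20 without AAV-RBM20 replicate 3.

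Cells other than muscle fibres express Runx genes, so markers of such cells were summed per library. Markers of muscle fibres were present at high level in every library, with a sum of 156000, 145000 and 144000 CPM after AAV-GFP and of 135000, 145000 and 94900 CPM after AAV-RBM20, lowest in replicate 3. The median log2 fold change of the 16 fibre markers was -0.37, with 4 above 0. The ranges of 5 genes of fast fibres were lower in AAV-RBM20 without overlap, against 9.04% of all genes tested. They were the troponin subunits Tnnc2, Tnni2 and Tnnt3, the calcium buffer Pvalb and the Z-disc protein Actn3. Tnnc2 was at 1960, 1860 and 2660 CPM after AAV-GFP and at 1160, 1310 and 1330 CPM after AAV-RBM20 (log2 fold change -0.77 ± 0.18). In the edgeR test without a block none of the 16 passed. In that test 4 had an unadjusted p below 0.05, all lower in AAV-RBM20, against 3.82% of all genes tested. DESeq2 called Tnnc2 alone (adjusted p = 0.0177), against 0.362% of all genes. The fast myosins Myh2 and Myh1 had the largest log2 fold changes of the list, at 0.76 ± 0.80 and 0.42 ± 0.42, and overlapped between the groups. Myh4, a more abundant fast myosin, went the other way and also overlapped. It was at 39000, 39900 and 31000 CPM after AAV-GFP and at 25200, 34100 and 15200 CPM after AAV-RBM20 (-0.56 ± 0.30). Some transcripts of fast fibres were thus lower in the libraries in which Runx1 was higher, and others were not. Their part in the Runx1 difference was not tested. The summed satellite cell markers overlapped between the groups at 2210 to 2660 CPM in AAV-GFP and 2040 to 2330 CPM in AAV-RBM20. Most of this sum was Des, at 2250, 2070 and 2540 CPM against 2210, 2090 and 1940 CPM, so it says little about the other markers. Of the 12 satellite markers, 7 were above 0 with a median of 0.12, the largest being Megf10 at 0.64 ± 0.33, which overlapped. The ranges of Cdh15, Sdc4 and Myod1 were lower in AAV-RBM20 without overlap, against 9.04% of all genes tested. Cdh15 was at 22.9, 21.6 and 20.4 CPM against 17.3, 16.4 and 12.5 CPM. Of 17 macrophage markers tested, 16 had a log2 fold change above 0, with a median of 0.94, against 8829 of all 17222 genes tested. The macrophage markers summed to 43.5, 39.8 and 136 CPM with AAV-GFP, and 96.5, 86.5 and 202 CPM in AAV-RBM20. They were thus higher in AAV-RBM20 for each replicate number, as Runx1 was, and highest in the libraries numbered 3. Their sums overlapped between the groups only through AAV-GFP replicate 3, with 136 CPM of macrophage markers and 5.95 CPM of Runx1. AAV-RBM20 replicates 1 and 2 had 96.5 and 86.5 CPM of macrophage markers and 13.8 and 12.4 CPM of Runx1. Without the libraries numbered 3 the log2 fold change of Runx1 was 1.29 ± 0.14. The macrophage sums of those libraries, 43.5 and 39.8 CPM against 96.5 and 86.5 CPM, did not overlap either. In the blocked edgeR fit, 2 of the 17 macrophage markers passed, against 0.145% of all genes tested. They were Ccr2 and Ctss (log2 fold change 1.51 ± 0.15 and 1.49 ± 0.15, adjusted p = 0.0251 for both). The part of macrophages in the Runx1 difference was not tested.

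T and NK cell markers were scarce, with 4 of 16 tested. Their sum was 4.03, 3.35 and 3.67 CPM with AAV-GFP, and 5.26, 3.73 and 13.4 CPM in AAV-RBM20, high in the same single library as Runx3. Of the 16, 15 had their highest value there. The same held for 16 of the 17 macrophage markers, 2 of the 12 fibro-adipogenic markers and 1 of the 16 fibre markers. The share over all genes was not computed. The exception among the T and NK cell markers was Cd247, the most abundant of them, at 3.30, 2.06 and 1.54 CPM with AAV-GFP against 3.45, 1.59 and 2.41 CPM with AAV-RBM20. In that library Cd3e, a chain of the T cell receptor complex, reached 0.947 CPM and Nkg7, a cytotoxic granule gene, 1.07 CPM, while no other library exceeded 0.238 and 0.114 CPM. Markers of bone and cartilage were also highest there, with a sum of 13.6 CPM against 4.11 to 7.33 CPM in the other 5 libraries. This held for 5 of the 10 genes of the list, while Sox9, a regulator of cartilage, was at 2.76 CPM there and at 4.20 and 4.25 CPM in AAV-RBM20 replicates 1 and 2, and the cartilage collagen Col2a1 was at 0.0824 CPM there and at 0.605 CPM in AAV-RBM20 replicate 1. Ibsp, the bone sialoprotein gene, was at 2.59 CPM there and at 0 in 3 of the other libraries, and Matn1 and Cnmd, markers of cartilage, were at 0 in all 6. Runx2 had its highest value, 3.23 CPM, in this library too, although AAV-RBM20 replicate 1 followed at 2.58 CPM. Neutrophil and mast cell markers overlapped between the groups, at 5.98 to 10.8 CPM and 6.80 to 11.1 CPM, with Ly6g at 0 in every library. Cd3e, Nkg7, Ibsp, Col2a1, Matn1, Cnmd, Ly6g, Tnnt3, Pvalb, Actn3, Myh4, Des and Foxp3 were named after their values were seen. Whether blood cells or bone tissue account for Runx2 and Runx3 in AAV-RBM20 replicate 3 was not tested.

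**Figure D5:**
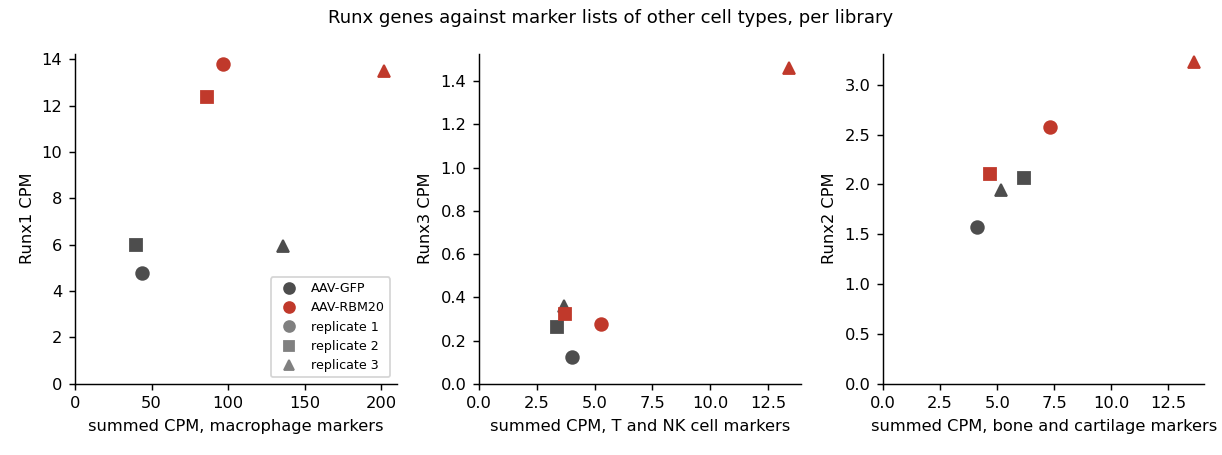
CPM of a Runx gene (vertical axis) against the summed CPM of a marker list (horizontal axis) in the 3 AAV-GFP (grey) and 3 AAV-RBM20 libraries (red), with the replicate number given by the symbol. Runx1 separates the groups, and the macrophage sums overlap only through AAV-GFP replicate 3. Runx3 and the T and NK cell markers are both high in AAV-RBM20 replicate 3 alone.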

How the data were processed

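RNA from whole TA muscle was made into stranded, ribosomal RNA-depleted libraries, and per the labels and methods the authors aligned reads with HISAT2 to mm10, counted them per gene with HTSeq and used DESeq2. Versions and the counting strand setting are not given in the sources used here. The deposited counts (raw, whole numbers) were used, and the deposited DESeq2-normalised table was not. The 6 columns were matched to samples by the labels, and symbols, exons and lengths were taken from GENCODE M21 (55141 of 55401 identifiers matched). The 4 genes and all gene lists were chosen with earlier results of these data known.

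Counts were filtered with filterByExpr, TMM-normalised and fitted in edgeR 4.0.16 (quasi-likelihood test, robust, no covariate) in R 4.3.3, with Benjamini-Hochberg adjustment over the 17222 genes tested and a threshold of 0.05. The standard error is the log2 fold change divided by the square root of F. CPM used TMM-scaled library sizes and a prior count of 2 on the log2 scale. FPKM divided CPM by merged exon length. Group ranges were compared as lowest against highest value. The fit was tested on simulated data. Protein blots of the same experiment name different animals within a group and, for some animals, one vector in each leg. Which animals gave these libraries is not stated in the sources used here, so p-values measure the spread between these samples, part of which may be technical or shared by animals. Replicate counts differed well beyond sampling noise (chi-square per degree of freedom 15.1 to 545), so none was a copy. The alternatives tried were size factors from DESeq2, upper quartile scaling, no filter, a filter of 1 CPM in 3 libraries, DESeq2 1.42.0, the replicate block, leaving out each library, and leaving out both libraries numbered 3.

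Titles number the samples 1 to 3 in each group, whereas descriptions and column names number AAV-RBM20 on from AAV-GFP. After the group means were removed, log2 CPM correlated across genes at 0.42, 0.20 and 0.48 between same-numbered libraries, all over 0.1, so the titles' numbers were taken to pair the samples. Differently numbered libraries also reached 0.22 and 0.13, and the meaning of a number is not labelled. Of each list, genes were named if among the 2 largest or 2 smallest log2 fold changes (4 and 4 for denervation and cofactor lists) and averaging 0 or more in log2 CPM, with the acetylcholine receptor subunits and Myog always.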

Additional observations from a re-analysis of the deposited data

How the results depend on the processing

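Depth limits Runx3, with 5 to 71 counts per library, and 3 samples per group limit every comparison. With samples paired by number as a replicate block, edgeR called 25 genes against 0 without it. Without a filter on low counts it called 8, with both libraries numbered 3 left out 690, and DESeq2 called 72. Leaving out 1 library left 0 calls throughout, each time with a group of 2. Of the cofactor, target and denervation genes, 0 were called without 1 library and 0 with the block, 2 with DESeq2 (Myh3 and Myh8) and 6 with both libraries numbered 3 left out (Col1a2, Csf1r, Fbxo32, Hdac3, Hipk2 and Ncam1). For each of these counts the cause was not tested.

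Leaving out each library, the log2 fold change ranged from 1.15 to 1.30 for Runx1, 0.35 to 0.64 for Runx2, 0.25 to 1.83 for Runx3, with 0.25 without AAV-RBM20 replicate 3, and -0.56 to -0.28 for Cbfb. The block moved none of them by over 1.5 times. The level differences ranged from 4.68 to 5.08 (Cbfb minus Runx1), 1.37 to 1.57 (Runx1 minus Runx2) and 1.54 to 1.97 (Runx2 minus Runx3). The exact test cannot go below 0.0625 with 5 libraries and gave 0.0625 each time. With the mean of each numbered pair as the unit, an alternative chosen after seeing the data, the differences were 4.89, 1.49 and 1.69 and p was 0.25, the smallest that 3 pairs allow. Leaving out AAV-RBM20 replicate 3 moved the median of the blood-cell targets to 0.52 and that of the skeletal targets to -0.20. Of 30 list genes followed, 2 changed direction. Mmp13, at 1.93, ranged from -2.75 (without AAV-RBM20 replicate 3) to 2.50 when each library was left out and was at -2.28 with both libraries numbered 3 left out. Chrnb1 ranged from -0.35 to 0.21 when each library was left out, with 0.17 and 0.08 without AAV-GFP replicates 1 and 2 and 0.21 without AAV-RBM20 replicate 3. The median log2 fold change of all genes stayed within 0.1 under every scaling.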
